A study of Mus musculus with 4 samples.

Results

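ABC transporter genes were examined in 46C mESCs treated with the PKC inhibitor Go6983. A gene was taken as a member when its annotated symbol named a numbered gene of ABC subfamilies A to G, its annotated type was protein-coding, and it stood in the authors' deposited expression table. By this rule 8 of the 1577 genes in the table were members: *Abca1*, *Abca3*, *Abca4*, *Abca7*, *Abca9*, *Abcc6*, *Abcc8* and *Abcg4*. Total RNA was sequenced from 2 samples of 46C cells grown for 24 h in serum-containing medium with 5 μM Go6983, an inhibitor of several PKC isoforms, and from 2 samples of the same line grown in control medium (no treatment, NT). 46C is a single mouse ESC line, no genetic change separated the groups, and whether LIF was present is not given for these samples. The sources do not say whether the 2 samples of a group came from separate cultures, so the p-values measure only the spread between these samples, which may be technical.

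ABC transporters are membrane proteins that bind and hydrolyse ATP to move substrates across or out of a lipid bilayer. Proteins of subfamily A mostly carry lipids, those of subfamily C include organic anion exporters and the sulfonylurea receptors that regulate potassium channels, and those of subfamily G include exporters of sterols and drugs. In ESCs and early embryos, ABC proteins are best known for drug and dye efflux and for the handling of cholesterol.

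In Go6983-treated cells, 7 of the 8 ABC genes were higher and 1, *Abca9*, was lower than in NT cells. The 3 with the most counts were the lipid transporter genes *Abca1*, *Abca7* and *Abca3*, each 2.02-fold to 2.56-fold higher with Go6983. The largest rise was that of *Abcg4*, a sterol exporter gene, at 4.55-fold. The share called higher was 87.5% of members. Over all listed genes the background was 68.8% called higher and 29.7% called lower, at an adjusted p below 0.05 by limma with Benjamini-Hochberg adjustment over the 1577 genes and a change of at least 2-fold. The median log2 fold change was 1.27 over the 8 members and 1.21 over all listed genes. Over the genes called higher it was 1.36 for the 7 members and 1.42 for all listed genes.

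The table itself limits what these counts can show. Every listed gene had group means at least 1.00 apart on the log2 scale. The table had thus been selected for changed genes on the same samples. With 68.8% of listed genes called higher and 29.7% called lower, a call mostly repeats that selection. The p-values were adjusted within this selected list, so they do not control false discovery. The whole mouse annotation (GENCODE M21) holds 50 genes with such symbols, of which 16% were listed, against 5.47% of the 21951 protein-coding genes. Subfamily A gave 5 of its 16 genes, subfamily C 2 of 10 and subfamily G 1 of 6. None of the 10 genes of subfamily B, the 4 of D, the 1 of E or the 3 of F was listed. The 42 unlisted ABC genes were not analysed here. The members had a median exon length of 8069 bases, against 3946 bases for all listed protein-coding genes. Their median level in the higher group was 147 normalized counts, against 94.7 over all listed genes.

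All values are counts divided by a size factor per sample (normalized counts), obtained by undoing the log2(value + 1) scale of the table. Fold changes in log2 are differences of group means on that log2(value + 1) scale, and the calls use these. Fold values of single genes not in log2 are ratios of mean normalized counts, so they can differ from the log2 values. The reads recovered over listed genes numbered 1054236 and 927603 in the Go6983 samples and 929813 and 859777 in the NT samples, and the total depth is unknown. Of 11 ESC markers, 4 were listed, at between 6796 and 34977 normalized counts over the 4 samples, and of 13 markers of differentiated or feeder cells 1 was listed, *Pax6*, at between 23.5 and 78.6 normalized counts. With Go6983 the ESC markers *Tfcp2l1* (3.25-fold), *Nanog* (2.08-fold) and *Klf4* (2.02-fold) were higher and *Utf1* (0.453-fold) was lower. *Pax6* was lower (0.370-fold, adjusted p = 0.00849). Median-ratio scaling over the listed genes, which centres them by construction, gave log2 fold changes of -0.063 for *Nanog* and -0.11 for *Klf4*. For *Tfcp2l1* and *Nanog*, the paper reports that quantitative PCR matched the sequencing. The part of these marker differences in the ABC gene results was not tested. The ESC markers *Pou5f1* and *Sox2* were not listed and were not analysed here. In bulk RNA, fewer cells of a type and less RNA per cell cannot be told apart.

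**Figure D1:**
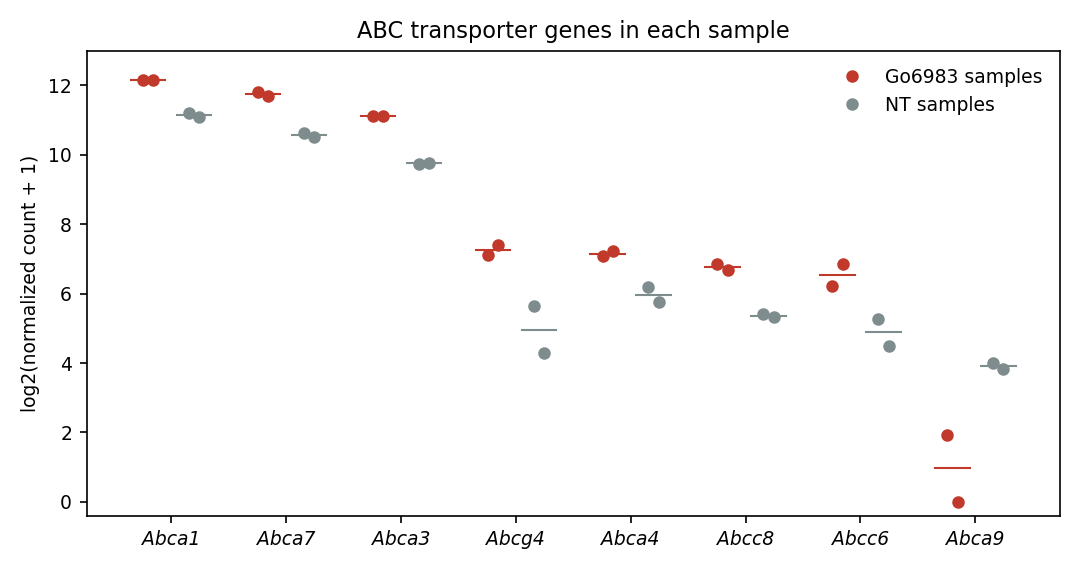
ABC transporter genes in each sample, as log2(normalized count + 1). Each point is a sample (Go6983 at the left of each gene, NT at the right, n = 2 each) and each bar is the group mean. The Go6983 points lie above both NT points for 7 genes and below them for *Abca9*. Median-ratio scaling, which centres the listed genes by construction and is not drawn, gave *Abca1* a log2 fold change of -0.11, not called.

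*Abca1* encodes the transporter that passes cellular cholesterol and phospholipid to apolipoprotein A-I and so begins the formation of HDL. The gene (ENSMUSG00000015243) lies on the minus strand at chr4:53030787-53159895 of GRCm38. *Abca1* had 4608 and 4521 normalized counts in Go6983-treated cells, against 2350 and 2180 in NT cells. The Go6983 samples lay close together and well above both NT samples. The means were 4565 ± 61.2 with Go6983 and 2265 ± 121 in NT cells (SD, n = 2 each). This is a difference of 1.01 in log2 (SE 0.0917, adjusted p = 0.000446). *Abca1* had the most counts of any member in both groups and the smallest change, at 2.02-fold, close to the 2-fold line that the table and the call share. Its log2 fold change ranged between 0.96 and 1.07 with any sample left out, at an adjusted p of at most 0.0245. Without Go6983 replicate 1 or NT replicate 2 it fell short of 2-fold.

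*Abca7*, the closest relative of *Abca1* in sequence, encodes a phospholipid transporter with a role in phagocytosis, and human *ABCA7* is a risk gene for Alzheimer's disease. The gene (ENSMUSG00000035722) is at chr10:79996494-80015572, plus strand. *Abca7* had 3576 and 3329 normalized counts with Go6983, against 1583 and 1447 in NT cells. All 4 samples kept to their groups, as with nearly all listed genes, and the gap within each group was small beside the gap between them. *Abca7* rose by 1.19 on the log2 scale (SE 0.10, adjusted p = 0.000428), to 3453 ± 175 with Go6983, against 1515 ± 96.4 in NT cells (SD, n = 2 each).

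*Abca3* encodes the transporter that loads phospholipid into lamellar bodies, the surfactant stores of alveolar type II cells. The gene (ENSMUSG00000024130) is at chr17:24351950-24410201, plus strand. *Abca3* had 2202 and 2223 normalized counts with Go6983, against 853 and 874 in NT cells. Its replicates differed least of all members, by 0.014 between the Go6983 samples and 0.034 between the NT samples on the log2 scale, against 1.33 between the nearest samples of the groups. The log2 fold change was 1.36 (SE 0.0924), with the lowest adjusted p of the members, 0.000388. Of the 50-base words in its exons, 10.1% also occur in other genes, chiefly in the opposite-strand gene *D330041H03Rik*, and whether the counting used strand is not given. *Abca7* and *Abca3* stayed called with any sample left out, at an adjusted p of at most 0.0230 and 0.0157.

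*Abca1*, *Abca7* and *Abca3* supplied between 95.0% and 95.7% of the summed member counts in the Go6983 samples and between 95.7% and 96.9% in the NT samples. The sums over the 8 members were 10850 and 10606 normalized counts with Go6983, against 5001 and 4645 in NT cells. The 5 other genes gave the rest, with no sample above the 169 normalized counts of *Abcg4* in Go6983 replicate 2.

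**Figure D2:**
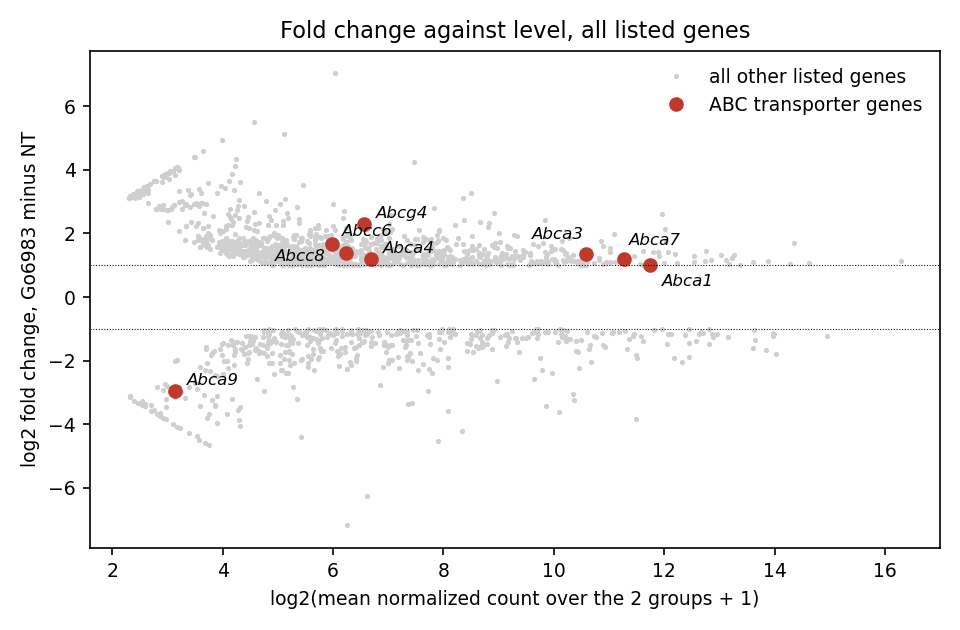
Log2 fold change (Go6983 minus NT) against log2(mean normalized count over both groups + 1) for the 8 ABC genes and all other listed genes. The empty band between the dotted 2-fold lines shows the selection of the table. *Abca1* lies on the upper line at 1.01 (-0.11 and not called under median-ratio scaling) and *Abca9* is the only member below the band.

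The promoters of these abundant genes and of *Abca9*, the member that fell, are printed to show what sequence stands before each start. RefSeq (GRCm38.p6) gave a promoter for 5 of the 8 members (*Abca1*, *Abca3*, *Abca4*, *Abca7* and *Abca9*). Each line gives the 200 bases before the RefSeq start, 5′ to 3′ on the gene's strand, with matches to the searched motifs in capitals. The positions are chr4:53159896-53160095 (minus) for *Abca1*, chr10:79996294-79996493 (plus) for *Abca7*, chr17:24351823-24352022 (plus) for *Abca3* and chr11:110168154-110168353 (minus) for *Abca9*.
Abca1: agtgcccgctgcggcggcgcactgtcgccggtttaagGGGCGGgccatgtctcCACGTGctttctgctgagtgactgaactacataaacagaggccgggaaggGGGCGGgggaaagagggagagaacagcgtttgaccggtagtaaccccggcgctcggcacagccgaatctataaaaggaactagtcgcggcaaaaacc
Abca7: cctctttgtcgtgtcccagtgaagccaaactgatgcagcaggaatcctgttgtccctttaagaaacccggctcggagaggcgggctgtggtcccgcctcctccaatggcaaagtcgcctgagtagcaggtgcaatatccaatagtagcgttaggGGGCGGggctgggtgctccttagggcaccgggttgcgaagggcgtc
Abca3: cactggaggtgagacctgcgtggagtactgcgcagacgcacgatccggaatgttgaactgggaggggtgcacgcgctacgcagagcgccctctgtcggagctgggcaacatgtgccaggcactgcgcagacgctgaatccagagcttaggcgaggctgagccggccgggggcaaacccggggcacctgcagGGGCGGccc
Abca9: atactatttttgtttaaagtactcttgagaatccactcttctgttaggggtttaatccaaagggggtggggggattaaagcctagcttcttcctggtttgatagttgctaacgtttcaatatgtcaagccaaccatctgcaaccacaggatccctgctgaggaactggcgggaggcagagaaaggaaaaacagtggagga

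The search covered both strands of 300 bases per promoter, 250 before and 50 after the start, and took exact matches only. The motifs were DR4, the LXR type of element (2 copies of AGGTCA in 1 direction with 4 bases between them), the E-box CACGTG, the sterol element SRE and the GC box GGGCGG. No match to a motif overlapped a match to another motif in these promoters. *Abca1* held an E-box with its first base at -147 and GC boxes at -163 and -97. *Abca7* held a GC box at -46 and *Abca3* a GC box at -9. *Abca4* and *Abca9* held no exact match to any of the 4 motifs, and no member promoter held an exact DR4 or SRE. Elements that differ from these letters at any base were not searched for, so their presence was not tested. Of 32851 promoters of this length, 35.7% held a GC box, 7.15% the E-box, 0.0913% SRE and 0.0152% DR4. The GC content was 62.7% for *Abca1*, 60.7% for *Abca7*, 69.7% for *Abca3*, 56.3% for *Abca4* and 45.3% for *Abca9*, against a median of 52.7% over all promoters. Nearly all promoters lack an exact DR4 or SRE, so the lack of both in the members does not set them apart. These matches describe letters only, and control by LXR or sterols was not tested.

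*Abcg4* encodes a sterol exporter of the brain that works as a dimer and passes cholesterol to HDL. The gene (ENSMUSG00000032131) is at chr9:44273188-44288615, minus strand. *Abcg4* had 136 and 169 normalized counts with Go6983, against 48.7 and 18.4 in NT cells. As with nearly all listed genes, the groups did not overlap. The NT samples were 1.36 apart on the log2 scale, nearly as far as the 1.47 between the nearest samples of the groups. Its log2 fold change was 2.30 (SE 0.474, adjusted p = 0.00614), and 176 of the 1577 listed genes had one at least as large. Without Go6983 replicate 1 or replicate 2 the adjusted p was 0.108 and 0.135, and leaving out NT replicate 1 gave a log2 fold change of 2.98, NT replicate 2 one of 1.62.

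*Abca4* encodes the transporter that clears retinal conjugates from the disc membranes of photoreceptors. The gene (ENSMUSG00000028125) is at chr3:122044443-122180123, plus strand. *Abca4* had 135 and 148 normalized counts with Go6983, against 71.6 and 53.1 in NT cells. The groups did not overlap, as with nearly all listed genes, and the log2 fold change was 1.18 (SE 0.237, adjusted p = 0.00557). The call was lost without Go6983 replicate 1 (adjusted p = 0.0791) or Go6983 replicate 2 (adjusted p = 0.0925), and leaving out NT replicate 2 gave a log2 fold change of 0.97.

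*Abcc6* encodes a transporter of liver and kidney that releases ATP, and its loss causes ectopic mineralization. The gene (ENSMUSG00000030834) is at chr7:45967555-46030302, minus strand. *Abcc6* had 73.7 and 116 normalized counts with Go6983, against 37.8 and 21.5 in NT cells. Samples of a group differed by 0.64 (Go6983) and 0.79 (NT) on the log2 scale, against 0.95 between the nearest samples of the groups. It rose by 1.66 on the log2 scale (SE 0.398), with the highest adjusted p of the members, 0.00993. *Abcc6* lost its call without Go6983 replicate 1 (adjusted p = 0.0878), Go6983 replicate 2 (0.153) or NT replicate 2 (0.0725).

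*Abcc8* encodes SUR1, which is not an exporter but the regulatory subunit of the ATP-sensitive potassium (KATP) channel that governs insulin release in pancreatic β cells. The gene (ENSMUSG00000040136) is at chr7:46104523-46180033, minus strand. *Abcc8* had 116 and 100.6 normalized counts with Go6983, against 41.8 and 38.8 in NT cells. Both pairs of replicates were tight, and the log2 fold change was 1.40 (SE 0.241, adjusted p = 0.00321). Without Go6983 replicate 1 the adjusted p was 0.0697, and without Go6983 replicate 2 it was 0.0583.

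The pore of that channel is encoded by *Kcnj11*, which lies 3758 bases from *Abcc8* on the same strand. *Kcnj11* had 37.3 and 37.5 normalized counts with Go6983, against 11.9 and 10.2 in NT cells, and rose by 1.67 on the log2 scale (SE 0.348, adjusted p = 0.00627). With Go6983 replicate 1 left out its adjusted p was 0.0574, and with Go6983 replicate 2 left out 0.0590. *Kcnj8*, the other pore gene of this kind, on chromosome 6, had 5.60 and 9.63 normalized counts with Go6983, against 14.9 and 34.7 in NT cells. *Kcnj8* fell by 1.51 on the log2 scale (adjusted p = 0.0350), and its adjusted p was 0.250, 0.134 and 0.140 without Go6983 replicate 1, Go6983 replicate 2 and NT replicate 2. The *Kcnj8* log2 fold change was -0.93 with NT replicate 2 left out and -2.09 with NT replicate 1 left out, and pseudocounts of 0.1 and 0.01 gave an adjusted p of 0.0503 and 0.0621. Both subunit genes of the β-cell type of channel were higher with Go6983, and the pore gene of the vascular type was lower. Both pore genes had low counts. Under median-ratio scaling *Abcc8* was at 0.29 and *Kcnj11* at 0.61 in log2, with neither called, and *Kcnj8* stayed called at -2.53. *Kcnj11* and *Kcnj8* were all the partner genes on the list.

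**Figure D3:**
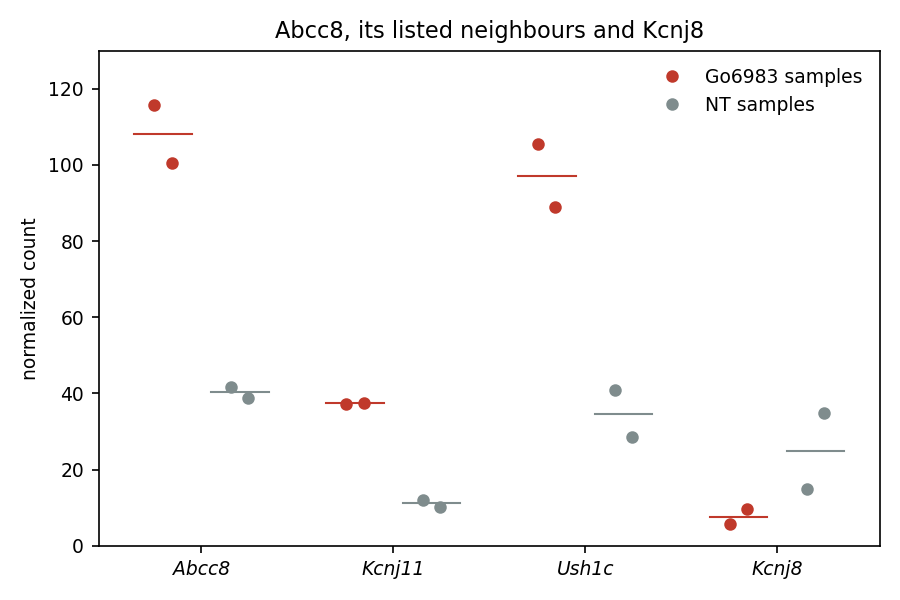
Normalized counts of *Abcc8*, its listed protein-coding neighbours *Kcnj11* and *Ush1c*, and *Kcnj8* in each sample, with bars at the group means (Go6983 at the left of each gene, NT at the right, n = 2 each). The Go6983 samples of *Abcc8* stand at 116 and 100.6, above the NT samples at 41.8 and 38.8, and *Kcnj8* is the gene with Go6983 below NT.

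*Abca9* belongs to a cluster of related subfamily A genes whose substrates are not well established. The gene (ENSMUSG00000041797) is at chr11:110100749-110168196, minus strand. *Abca9* had 2.80 and 0 normalized counts with Go6983, against 14.9 and 13.3 in NT cells. These were 3 and 0 reads with Go6983 and 15 and 13 reads in NT cells, and the NT samples agreed while the Go6983 samples held almost nothing. A count of 0 in Go6983 replicate 2 allows up to 3.21 normalized counts. The ratio of pooled normalized counts was 0.106, with an exact 95% interval of 0.0206 to 0.343 that covers counting error only. The log2 fold change of -2.95 (SE 0.668, adjusted p = 0.00847) depends on the pseudocount of 1 at such counts. Leaving out NT replicate 1 gave an adjusted p of 0.0845, and NT replicate 2 one of 0.0773. Leaving out Go6983 replicate 1 gave a log2 fold change of -3.91, and Go6983 replicate 2 one of -1.99. Of its 50-base exon words 0.162% also occur in *Abca6*, a neighbour in the cluster.

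The Go6983 and NT samples did not overlap for any member, which held for nearly all genes of this selected table. For 7 genes the lower Go6983 sample exceeded the higher NT sample, against a background of 69.6% of listed genes, and for 1 gene the higher Go6983 sample was under the lower NT sample, against a background of 30.1%. A fit with a sample left out leaves 1 group with a single sample, so its spread comes from the 2 samples of the other group and from the limma prior over all genes, and the lone sample is assumed to vary like the other group. In these 4 fits *Abca1*, *Abca7* and *Abca3* kept an adjusted p below 0.05, and *Abcg4*, *Abca4*, *Abcc8*, *Abcc6* and *Abca9* each missed it in 2 or 3. No member changed sign in these fits, and with so few samples their p-values do not rank the members by stability.

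**Figure D4:**
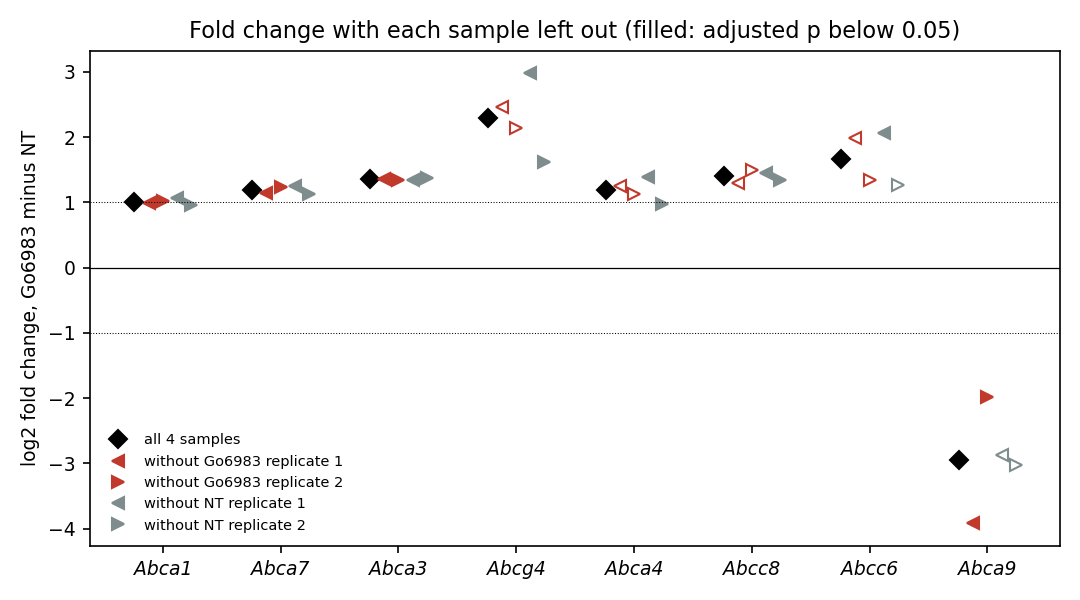
Log2 fold change of each member (Go6983 minus NT) with all 4 samples and with each sample left out. Filled symbols mark an adjusted p below 0.05 and dotted lines a 2-fold change; *Abca3* stays between 1.34 and 1.37, whereas *Abcg4* ranges between 1.62 and 2.98 and *Abca9* between -3.91 and -1.99. In median-ratio scaling, which is not drawn, *Abca1* had a log2 fold change of -0.11 and was not called.

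Median-ratio scaling over the listed genes, which centres a table in which most genes were higher, moved the median of all log2 fold changes by -1.10. Under it *Abca1* turned to -0.11, and *Abca7* (0.066), *Abca3* (0.23), *Abca4* (0.073), *Abcc8* (0.29), *Abcc6* (0.56) and *Abcg4* (1.20) kept their sign with none called. Only *Abca9* of the members was called with that scaling. The split over all listed genes was 138 higher and 476 lower, against 1085 higher and 469 lower with the deposited scaling. Against the median of 1.21 over all listed genes in the deposited scaling, *Abca3*, *Abcg4*, *Abcc8* and *Abcc6* stood above and *Abca1*, *Abca7*, *Abca4* and *Abca9* below.

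Levels were compared between the genes per kb of exon. With Go6983 the order was *Abca7* at 511 normalized counts per kb, *Abca1* at 440 and *Abca3* at 236, then *Abcg4* at 29.3, *Abcc6* at 16.5, *Abcc8* at 13.4, *Abca4* at 11.8 and *Abca9* at 0.174. In that order *Abcc6* and *Abcc8* overlapped in their 2 samples, and no other neighbours did. In NT cells *Abca7* at 224 and *Abca1* at 219 overlapped, *Abca3* followed at 92.1, and *Abca9* was last at 1.75. *Abcg4* (6.44), *Abca4* (5.19), *Abcc6* (5.18) and *Abcc8* (4.98) overlapped each with the next in NT cells. *Abca7* thus stood first per kb although *Abca1* had more counts, since its exons are shorter.

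**Figure D5:**
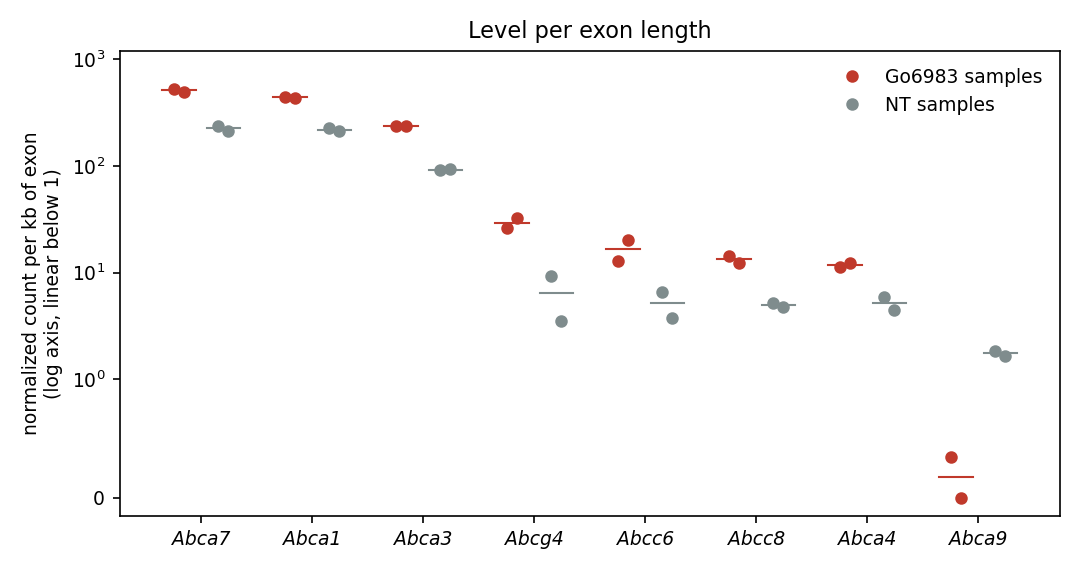
Normalized counts per kb of exon of each member in each sample, on a log axis that is linear below 1, with bars at the group means (Go6983 at the left of each gene, NT at the right, n = 2 each). The group means of *Abca7*, *Abca1* and *Abca3* are 236 or more with Go6983 and 92.1 or more in NT cells. Those of the other members are 29.3 or less with Go6983. Under median-ratio scaling *Abca1* had a log2 fold change of -0.11 and was not called.

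Annotated genes within 50 kb, counted for each member in turn and so possibly more than once, summed to 54. Of these, 6 different genes were listed, and all 6 were called higher with Go6983, beside the 68.8% of all listed genes so called. Besides *Kcnj11*, *Abcc8* had *Ush1c*, a scaffold protein gene of hair cells, with 105 and 88.8 normalized counts with Go6983, against 40.8 and 28.6 in NT cells (log2 fold change 1.48, adjusted p = 0.00560). It also had *Gm9860*, on the opposite strand inside the span of *Ush1c*, with a log2 fold change of 1.53 (adjusted p = 0.0296). *Gm9860* lost its call with the replicate block (adjusted p = 0.0538) and with a pseudocount of 0.01 (0.0522), and its log2 fold change was 2.14 with NT replicate 1 left out and 0.93 with NT replicate 2 left out. *Abcg4* lay between *Hinfp*, a histone gene regulator, and *Nlrx1*, a mitochondrial NOD-like protein gene. *Hinfp* had 1997 and 2052 normalized counts with Go6983, against 1056 and 831 in NT cells, and a log2 fold change of 1.11 that became -0.011 under median-ratio scaling. *Nlrx1* had 70.0 and 102 normalized counts with Go6983, against 32.8 and 42.9 in NT cells. *Abca1* had the noncoding *4930412L05Rik* at 45170 bases, with 27.1 and 22.5 normalized counts with Go6983, against 0 and 6.13 in NT cells. Its adjusted p was 0.0598 and 0.102 with pseudocounts of 0.1 and 0.01, and its log2 fold change was 1.85 with NT replicate 1 left out. Each of these genes missed an adjusted p of 0.05 without either Go6983 sample, with values of 0.0510 and 0.0559 for *Hinfp*, 0.102 and 0.0835 for *Ush1c*, 0.145 and 0.256 for *Gm9860*, 0.0814 and 0.162 for *Nlrx1*, and 0.190 and 0.174 for *4930412L05Rik*, given in the order of Go6983 replicate 1 and replicate 2. *Gm9860* (0.156 without NT replicate 2) and *Nlrx1* (0.0971 without NT replicate 1 and 0.0569 without NT replicate 2) also missed it without an NT sample. None of the 7 annotated genes that overlap a member was listed, 6 of which lie on the opposite strand.

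Genes that work beside ABC transporters were counted over 10 lists. Apart from genes with an ABC symbol they held 200 genes, of which 19 were listed. Of these, 14 were called higher, 4 lower and 1 neither, beside the 68.8% and 29.7% of all listed genes. Of 16 LXR targets, the sterol-induced genes to which *Abca1* belongs, 2 were listed and both rose. *Scd1*, a fatty acid desaturase, had 3969 and 3998 normalized counts with Go6983, against 1650 and 1596 in NT cells (log2 fold change 1.30). *Smpdl3a*, a phosphodiesterase, rose by 2.03. Under median-ratio scaling *Scd1* was at 0.17 and *Smpdl3a* at 0.94, with neither called. None of the 25 genes counted for cholesterol synthesis and SREBP action was listed. The same held for 35 flippase and scramblase genes.

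Of 30 apolipoprotein and lipoprotein receptor genes, *Sorl1* (log2 fold change 1.14) and *Vldlr* (1.48) rose, and *Lrp2*, the megalin receptor gene, fell by 1.48. Under median-ratio scaling *Sorl1* (0.013) and *Vldlr* (0.36) were not called, and *Lrp2* stayed called at -2.61. Of 20 genes of lipid-sensing nuclear receptors, *Nr5a2* rose (1.12) and *Rxrg* fell by 1.14. *Nr5a2* was at -0.0031 under median-ratio scaling, which centres the listed genes by construction. The paper reports that its quantitative PCR matched the sequencing for *Nr5a2*. Of 37 lysosome biogenesis genes 4 were listed and all 4 rose, beside the 68.8% of all listed genes called higher. The rises were 2.80 for *Gpnmb*, 1.19 for *Naglu*, 1.06 for *Hexa* and 1.01 for *Lamp2*. Under that scaling *Gpnmb* stayed called at 1.69, whereas *Naglu* (0.067), *Hexa* (-0.062) and *Lamp2* (-0.11) were not called. The paper's proteomics lists the Hexa protein as up with Go6983. Of 9 lamellar body and surfactant genes, the setting in which *Abca3* is known, *Ctsh* was listed and rose by 1.40. Of 28 drug response genes, *Cyp1a1* (2.05), *Ahrr* (1.82) and *Slco2a1* (1.06) rose, *Slco2a1* turning to -0.053 under median-ratio scaling, and *Cyp3a13* fell by 1.15. *Cftr*, an ABC protein gene with another kind of symbol that encodes a chloride channel, had 30.8 and 22.5 normalized counts with Go6983, against 86.5 and 37.8 in NT cells, and was not called (log2 fold change -1.09, adjusted p = 0.0632). It was below 0.05 without NT replicate 2 (0.0423, log2 fold change -1.68), with a filter at 50 normalized counts (0.0484), with the replicate block (0.0346) and with median-ratio scaling (0.0133, log2 fold change -2.18). Leaving out NT replicate 1 gave a log2 fold change of -0.51, and over all 12 alternatives the adjusted p of *Cftr* ranged between 0.0133 and 0.357. Of the 18 related genes called, 9 kept an adjusted p below 0.05 with any sample left out (*Cyp1a1*, *Gpnmb*, *Hexa*, *Lamp2*, *Lrp2*, *Naglu*, *Nr5a2*, *Scd1* and *Sorl1*), and the other 9 did not, with adjusted p-values up to 0.250.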

How the data were processed

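Total RNA of 46C mESCs was sequenced on Illumina instruments from 2 Go6983 and 2 NT samples. Bowtie 0.12.2 and the build mm9 appear in the submitters' processing notes, and for the counter, its use of strand, the annotation and the normalization tool the sources used here give nothing. The authors deposited 1 log2 value per gene and sample, equal to log2(count divided by a size factor, plus 1), for 1577 genes. The size factors recovered were 1.07 and 0.934 (Go6983) and 1.01 and 0.979 (NT), and 100% of values came out whole within 0.05. The study's legends describe FPKM, which these values are not. The table also holds the authors' group means, fold changes, p-values and adjusted p-values, which were not used.

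Log2 values were fitted as deposited with limma 3.58.1 in R 4.3.3 (lmFit, eBayes with trend; 2 residual and 3.63 prior degrees of freedom), with Benjamini-Hochberg adjustment over all 1577 genes, no filter and no replicate block. Calls needed an adjusted p below 0.05 and at least a 2-fold change. The fit was tested on simulated data. Those data were not selected for changed genes as the table was, so the test does not vouch for the calls made here. Replicates differed by a chi-square of 7.36 (Go6983) and 10.5 (NT) per gene, so none was a copy of another. Names, coordinates and exon lengths came from GENCODE M21 (GRCm38), which matched 1572 of the genes. Figures were drawn with matplotlib 3.10.9.

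Members and gene lists were chosen with earlier results of these data known. Withheld items were left out of the lists before counting and are not reported here. All members are named, with at most 3 listed genes per list by smallest p and all listed genes within 50 kb; *Naglu* and *Cyp3a13* were added after their values were seen. A planned search for motifs in the proteins was not run, since no protein sequences were used here. Alternatives were pseudocounts of 0.1 and 0.01, filters at 10 and 50 normalized counts, median-ratio scaling, limma without trend, limma-voom on recovered reads, other thresholds, each sample left out and the replicate block.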

Additional observations from a re-analysis of the deposited data

How the results depend on the processing

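Against 7 members higher and 1 lower, the counts were 7 and 1 with a pseudocount of 0.1, a filter at 10 normalized counts, limma without trend, limma-voom on recovered reads and an unadjusted p of 0.05 or less. Median-ratio scaling gave 0 members higher and a 4-fold line gave 1. The lower count became 0 with a pseudocount of 0.01, where *Abca9* had an adjusted p of 0.0829 (0.00341 to 0.0845 over its alternatives), and 0 with a filter at 50 normalized counts, which removed *Abca9*. With a sample left out, the members higher ranged from 2 (without Go6983 replicate 1) to 7 and the members lower from 0 to 1. Median-ratio scaling, which centres the listed genes by construction, turned *Abca1* to -0.11, *Hinfp* to -0.011, *Slco2a1* to -0.053, *Nr5a2* to -0.0031, *Hexa* to -0.062 and *Lamp2* to -0.11. With the longest transcript as length, 5 of the 8 members kept their rank per kb with Go6983. Over all listed genes, the 1085 higher became 138 with median-ratio scaling, 219 at 4-fold, 714 of 1044 with the filter at 50, and 445 and 407 without Go6983 replicate 1 and 2. The 469 lower became 121 at 4-fold and between 241 and 305 with a sample left out. The deviations of same-numbered samples correlated at 0.032, so the numbers were not taken as pairs; with the replicate block 7 members were higher and 1 lower. Depth limits *Abca9* most, at 3 reads over both Go6983 samples and 28 over both NT samples.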
